A study of Caenorhabditis elegans with 12 samples.

Results

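Larvae that lack MANF-1 were compared with wild-type larvae in the absence of an added stress. The comparison holds 6 of the 12 arrays of the study: 3 of manf-1 mutants carrying the tm3603 allele and kept in vehicle (DMSO), and 3 of the wild-type strain N2 kept in vehicle. They were chosen by their labels, and every non-control probe set of the Caenorhabditis elegans array was considered, 22548 in all. The other 6 arrays, 3 of tm3603 mutants and 3 of N2 in tunicamycin, serve below as a separate set in which the same genotypes differ. All animals were whole, synchronized larvae of the first larval stage (L1) that had hatched without food, were collected 24 h after plating and spent 5 h in liquid with DMSO or tunicamycin. The mutant is a single allele, and the labels do not say whether it was backcrossed or whether the 3 arrays of a group came from separate cultures, so that p-values measure the spread between these arrays, which may be technical. RNA from a whole larva mixes all tissues, and fewer cells of a type cannot be told apart from less RNA per cell.

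MANF and CDNF, the vertebrate relatives of MANF-1, are small proteins that reside in the endoplasmic reticulum (ER), can be secreted, and protect neurons, dopaminergic ones among them. In the ER lumen MANF binds the Hsp70 chaperone BiP, whose worm counterparts are HSP-3 and HSP-4. When unfolded proteins accumulate, the sensors IRE-1, PEK-1 and ATF-6 switch on the unfolded protein response, in which IRE-1 drives splicing of the xbp-1 transcript and hsp-4 is a standard reporter. The comparison therefore asks whether loss of manf-1 alone alters this pathway or other transcripts. No probe set is annotated to manf-1, so the level of the mutated gene was not checked here.

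Signals are log2 values, and a difference of 1 is a 2-fold difference in signal. Among 32 control probe sets for bacterial and yeast transcripts that should not occur in worm RNA, the median signal was 2.23 and the 95th percentile 3.34, which gives the range of background. Of the 22548 probe sets, 14709 were tested because on at least 3 arrays their signal was above that array's 40th percentile, and the other 7839 were not. Median signals of the 12 arrays lay between 3.957 and 4.052, and Spearman correlations within a group between 0.848 and 0.927. The 4 arrays numbered 2, one in each group, differed from the rest in the control probe sets that compare the 3′ with the 5′ end of a transcript: the log2 difference was -0.32 to -0.20 on these 4 and 0.02 to 0.38 on the other 8. Its part in the results was not tested, but results without these 4 arrays are given where they matter.

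The mutants and the wild type differed in 1 probe set at an adjusted p below 0.05 (0.0068% of the 14709 tested, limma with Benjamini-Hochberg adjustment). It belongs to tag-244 (C34H4.3), a gene whose product has no role that can be stated here, and it fell in the mutants. Its signals were 2.52, 2.99 and 3.12 in the mutant arrays, against 7.26, 6.73 and 6.42 in the wild-type arrays. Every mutant value lay within the range of the background controls and every wild-type value well above it, with no overlap. The difference was -3.93 (SE 0.44, adjusted p = 0.00628 by limma). Because the mutant signal could not be told from background, no fold is given for the transcript. The difference kept its size when arrays were left out, between -4.12 and -3.70 with any 1 vehicle array removed, but its adjusted p rose to 0.0582 without wild-type array 1, to 0.0505 without mutant array 2 and to 0.627 without the 4 arrays numbered 2, where the difference was -4.02.

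The gene was also low in mutants on the separate arrays with tunicamycin, where it was 1 of 6 probe sets past the threshold for the genotype difference (0.0408%). Its signals there were 2.37, 2.93 and 2.80 in mutants, against 6.48, 5.67 and 4.65 in wild type. These groups did not overlap either, and the difference was -2.90 (SE 0.44, adjusted p = 0.0495 by limma). For tag-244 that adjusted p was 0.0697 when dim probe sets were not filtered out. The genotype difference was 1.03 smaller in size with tunicamycin than with vehicle, a change that did not pass (SE 0.63, adjusted p = 0.995 for the interaction).

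The genes that follow tag-244 on the chromosome had the same pattern. In the RefSeq gene order, tag-244, C34H4.2 and C34H4.1 are direct neighbours. C34H4.1 had signals of 3.49, 3.63 and 3.69 in mutants, against 6.07, 5.69 and 5.50 in wild type. The mutant arrays lay just above the background range and below all wild-type arrays, with a difference of -2.15 (SE 0.49, unadjusted p = 0.000605, adjusted p = 0.807 by limma). With tunicamycin, C34H4.1 had 3.81, 3.61 and 3.51 in mutants, against 6.62, 7.60 and 5.19 in wild type, again without overlap (difference -2.83, SE 0.49, adjusted p = 0.0699 by limma). It passed the threshold in neither treatment.

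C34H4.2 was too dim to be tested with the others and is described because of its position, a choice made after its values were seen. Its signals were 2.07, 1.97 and 1.71 in mutants with vehicle, against 2.64, 5.96 and 4.31 in wild type. With tunicamycin they were 1.79, 2.06 and 1.97 in mutants, against 2.78, 2.44 and 2.69 in wild type. All 6 mutant arrays thus lay below all 6 wild-type arrays, although only wild-type vehicle arrays 2 and 3 rose above the background range. In a fit of all 22548 probe sets, its difference with vehicle was -2.39 (SE 0.55, unadjusted p = 0.00078, adjusted p = 0.989 by limma).

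The probe set of the next gene on the other side did not share the pattern. The collagen gene col-107, next to tag-244, had 11.78, 11.39 and 11.87 in mutants, against 11.84, 11.50 and 11.97 in wild type (difference -0.09). Whether this bright probe set also binds transcripts of other collagen genes was not checked, so the level of col-107 itself is less certain. Y41D4B.17, just beyond C34H4.1, stayed near background on nearly all arrays, with means of 2.62 in mutants and 2.29 in wild type, and was too dim to compare. Across the 22548 probe sets, all 6 mutant arrays lay below all 6 wild-type arrays in 33 (0.146%) and above them in 17 (0.0754%). Among the genes of these probe sets that could be placed in the gene order, 28 lower and 17 higher, the adjacent pairs were tag-244 with C34H4.2 and C34H4.2 with C34H4.1 on the lower side, and there was no such pair on the higher side. This search was made after the values of tag-244 were known. Whether the DNA of these genes differs between the strains was not analysed here.

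**Figure D1:**
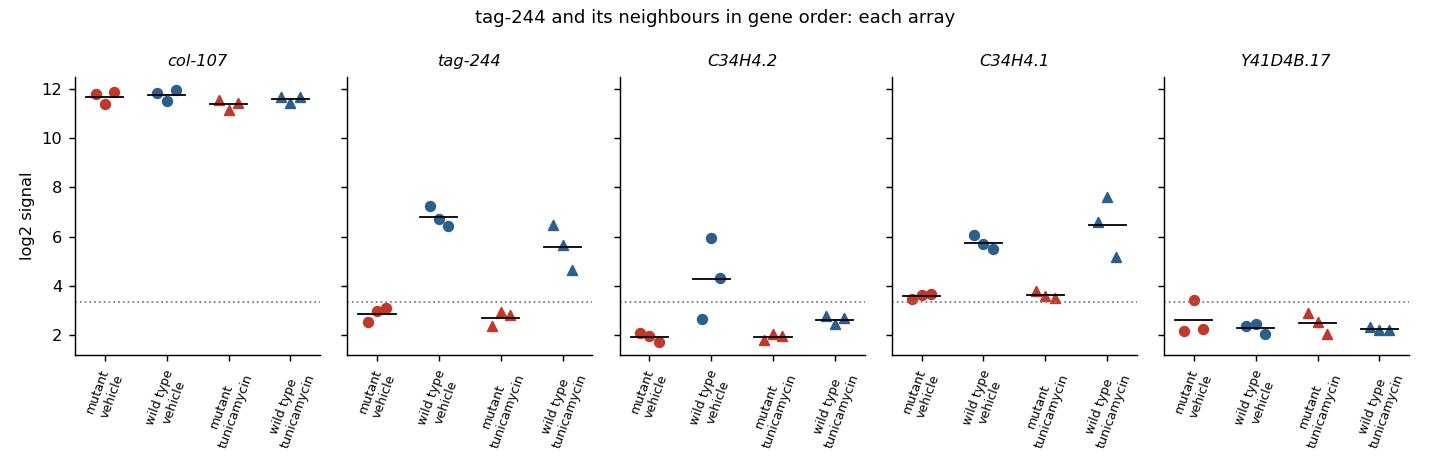
Log2 signal of tag-244, of both genes next to it on one side and of the nearest measured genes on either side, on each of the 12 arrays (points; bars are means of 3 arrays; red, mutant; blue, wild type; circles, vehicle; triangles, tunicamycin; the dotted line is the 95th percentile of background controls, 3.34). For tag-244, C34H4.2 and C34H4.1 every mutant point lies below every wild-type point, while col-107 and Y41D4B.17 show no such separation.

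These genes lie on the chromosome of manf-1, with 190 protein-coding genes between tag-244 and manf-1. Among the 20 genes on each side of manf-1, 18 had a tested probe set, and their median difference was 0.01, next to 0.03 over all 10844 genes tested. The groups did not overlap in 3 of the 18, all lower in mutants, where 4.5% of all genes are. The clearest was samt-1, which gave -0.99 (unadjusted p = 0.0109 by limma) with vehicle, its mutant mean of 2.84 lying within the background range, but 0.72 with tunicamycin. None of the 18 passed the adjusted threshold.

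Apart from tag-244, the number of differences was close to what a comparison without any difference gives. An unadjusted p below 0.05 was reached by 769 of the 14709 probe sets (5.23%), of which 445 (3.03%) were higher and 324 (2.2%) lower in mutants. Signals of the groups did not overlap for 1528 probe sets (10.4%), 875 of them higher (5.95%) and 653 lower (4.44%) in mutants. The median SE of a difference was 0.414, and its 95% interval had a median half-width of 0.889, so that changes of less than about 2-fold were mostly not detectable with 3 arrays per group even before adjustment. The quartiles of all differences were -0.26 and 0.32.

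**Figure D2:**
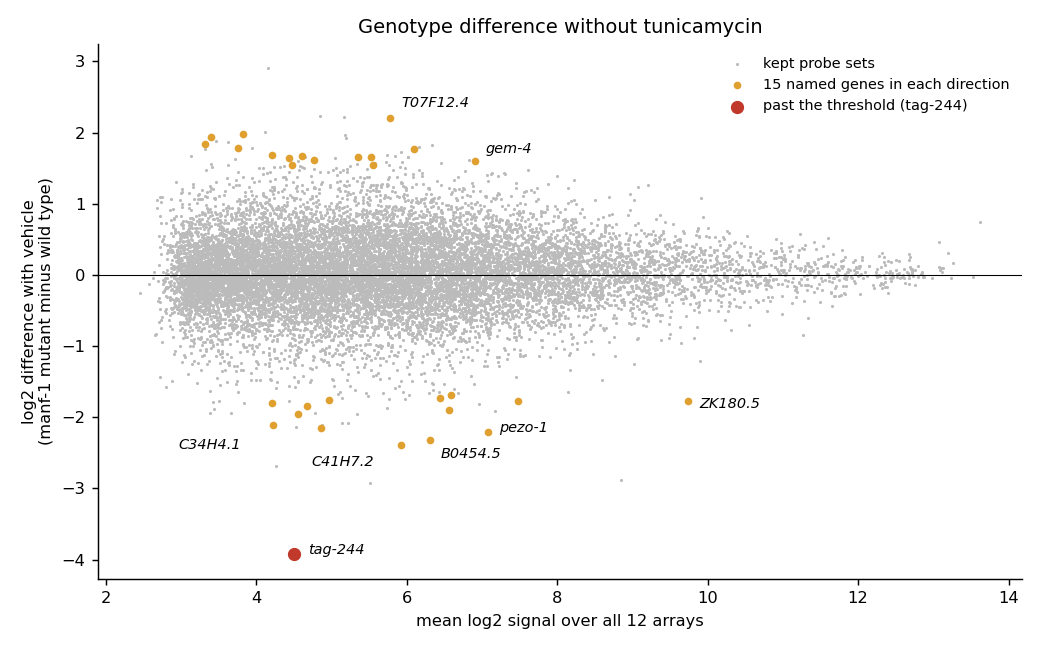
Genotype difference with vehicle (mutant minus wild type, log2) against the mean log2 signal over all 12 arrays for the 14709 tested probe sets (grey), with the 15 named genes in each direction in orange and tag-244 in red. tag-244 lies apart at -3.93; unnamed points of similar height to the orange ones had overlapping groups, an unadjusted p above 0.01, several or no annotated genes, or a brighter probe set for the same gene.

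Beyond tag-244, the genes with the largest differences are described as values, since none passed the adjusted threshold. They were taken as the 15 largest differences in each direction among genes with an unadjusted p below 0.01 and groups that did not overlap, which were 59 higher (0.544% of 10844) and 48 lower (0.443%). The last gene named on the higher side gave 1.539 and the next, klp-3, 1.536. The last named on the lower side gave -1.69 and the next, Y25C1A.8, -1.64. A probe set of abu-14 gave -2.93, but it was passed over because another abu-14 probe set is brighter. The brighter one gave -1.11 with overlapping groups. With tunicamycin the dimmer one gave -1.78 and the brighter one -1.83.

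On the lower side, B0454.5 had signals of 6.12, 5.18 and 5.93 in mutants, against 8.57, 7.90 and 7.72 in wild type. All mutant arrays lay more than 1.5 below the lowest wild-type array, and the difference was -2.32 (SE 0.43, adjusted p = 0.437 by limma). pezo-1, which encodes the mechanically gated Piezo channel, had 5.30, 6.47 and 6.21 in mutants, against 8.52, 9.21 and 6.88 in wild type. Its wild-type arrays spread over more than 2 units, and its difference of -2.21 shrank to -0.31 on the tunicamycin arrays.

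osm-7, whose product is a secreted protein of the epidermis that holds the osmotic stress response in check, had 4.59, 3.38 and 3.53 in mutants, against 5.00, 6.93 and 5.42 in wild type. The groups did not overlap, though mutant array 1 came within 0.5 of wild-type array 1, and the difference was -1.95. dpy-8, which encodes a collagen of the annular furrows of the cuticle, had 6.40, 5.42 and 6.57 in mutants, against 7.86, 8.57 and 7.04 in wild type (difference -1.69, SE 0.56, adjusted p = 0.905 by limma). grd-14, a member of the groundhog branch of hedgehog-related proteins, had 7.01, 6.18 and 7.51 in mutants, against 8.86, 9.26 and 7.89 in wild type (difference -1.77). The remaining ones were C41H7.2 (-2.39), ZC395.4, K01D12.9, B0041.5, thum-1, ZK180.5, K07H8.2 and dod-6, with differences from -2.39 to -1.73. A second probe set of C41H7.2 gave 0.33, so the measurements of that gene disagree.

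On the higher side, T07F12.4 had 6.72, 7.11 and 6.52 in mutants, against 5.01, 4.17 and 4.54 in wild type. The lowest mutant array lay 1.5 above the highest wild-type array, and the difference was 2.21 (SE 0.45, adjusted p = 0.563 by limma). gem-4, a copine that binds membranes in response to calcium, had 7.66, 8.11 and 7.22 in mutants, against 5.83, 5.95 and 6.39 in wild type (difference 1.61). abf-2, an antimicrobial peptide gene, had 5.00, 6.24 and 5.60 in mutants, against 3.37, 3.83 and 4.62 in wild type (difference 1.67). tsp-15 encodes a tetraspanin that keeps the epidermis intact, and its groups were only 0.11 apart despite a difference of 1.69. ger-1, for an enzyme of GDP-fucose synthesis, gave 1.54, and W05B10.4, K09E3.4, exc-12, gsox-1, Y62E10A.23, C34E7.3, Y48G1C.6, H27A22.1, C03A7.2 and T23G7.2 gave 1.54 to 1.98. A second probe set of Y62E10A.23 gave -0.35 against 1.77 from the one used, so its measurements disagree. For ger-1 (2.92), W05B10.4 (2.68), K09E3.4 (2.38), exc-12 (3.13) and gsox-1 (3.09) the mean signal in wild type lay within the background range, so that the size of the transcript difference is not known.

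The tunicamycin arrays share no sample with the vehicle arrays, so the same genes could be looked at again. Both contrasts came from the same fit, however, in which a probe set has the same SE in each. Genes picked by a low p with vehicle tend to have a small SE, so their p-values with tunicamycin are not independent of that choice. Of the 15 lower genes, 11 had a difference of the same sign (73.3%, against 52.5% of all genes), and 6 of these also had an unadjusted p below 0.05 there, where 5.8% of all genes had one in either direction. Those 6 were tag-244, C34H4.1, K01D12.9, B0454.5, dpy-8 and grd-14. K01D12.9 had 5.42, 6.99 and 5.43 in mutants with vehicle, against 8.49, 7.13 and 7.92 in wild type. With tunicamycin it had 5.11, 5.74 and 4.13 in mutants, against 6.66, 7.87 and 7.92 in wild type, so that the groups did not overlap in either treatment (differences -1.89 and -2.49). dpy-8 gave -1.91 with tunicamycin, B0454.5 -1.49 and grd-14 -1.28.

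Of the 15 higher genes, 8 had the same sign with tunicamycin (53.3%), and none of these had an unadjusted p below 0.05 in that direction. K09E3.4 had 3.58, 4.42 and 4.93 in mutants with vehicle, against 2.74, 2.48 and 1.91 in wild type, a difference of 1.94 against wild-type signals within the background range. With tunicamycin the difference was -1.10 (unadjusted p = 0.0277 by limma). T07F12.4 gave -0.76 there and abf-2 -0.56. Across all 10844 genes, the Pearson correlation of both sets of differences was 0.082, a description over genes, which are not independent.

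**Figure D3:**
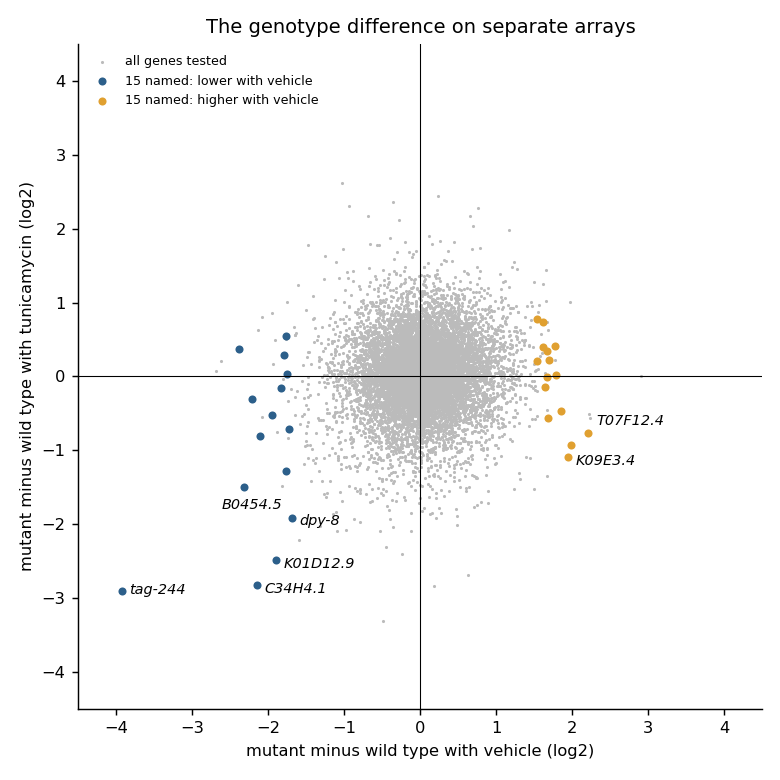
Genotype difference (mutant minus wild type, log2) on the vehicle arrays (horizontal) and on the tunicamycin arrays (vertical), which share no sample, for 10844 genes (grey), with the 15 named lower genes in blue and the 15 named higher genes in orange. tag-244, C34H4.1, K01D12.9, B0454.5 and dpy-8 lie far below 0 on both axes, while the orange points scatter around 0 on the vertical axis.

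Counted over all genes, 247 had an unadjusted p below 0.05 and a lower signal in mutants with vehicle, and 347 had one with tunicamycin. They shared 31 genes, which is 12.6% of the first and 8.93% of the second list, while 3.2% of all genes were in the second. For higher signals the lists held 339 genes (3.13%) and 282 genes and shared 11, or 3.24% and 3.9% of them, where 2.6% of all genes were in the second. A further 13 genes reached that p in opposite directions. Both p-values of a gene use the same estimate of its spread, so a small SE favours a place in both lists.

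A few of these genes were singled out after their values were seen and stand for no group. Below 0 in both treatments, ndub-3, for a subunit of mitochondrial complex I, gave -0.89 with vehicle and -0.89 with tunicamycin. acdh-1, a short-chain acyl-CoA dehydrogenase of the propionate shunt, gave -1.19 and -1.41, and sec-62, a component of the ER protein translocon, gave -1.37 and -1.11. Among those above 0 in both were hacd-1, a hydroxyacyl-CoA dehydrogenase, with 1.17 and 1.21, and sec-22, a SNARE of transport between ER and Golgi, with 0.69 and 1.14. Apart from tag-244, none of the genes shared by these lists passed the adjusted threshold with vehicle.

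ER stress genes showed no difference that could be detected. hsp-4 had signals of 8.45, 8.25 and 8.16 in mutants, against 8.68, 7.37 and 8.66 in wild type. The groups overlapped, wild-type array 2 being the lowest of the 6 and 1 of the arrays with the deviating 3′ to 5′ controls. The difference was 0.05 with a 95% interval from -0.59 to 0.70 (adjusted p = 0.996 by limma), and without the 4 arrays numbered 2 it was -0.36. hsp-3 had 9.64, 9.56 and 9.87 in mutants, against 9.57, 9.82 and 9.47 in wild type, with overlapping groups and a difference of 0.07 (95% interval -0.33 to 0.48). On the same scale the arrays with tunicamycin, on which the response is engaged, averaged 11.86 for hsp-4 in mutants and 11.46 in wild type.

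xbp-1, the transcript spliced by IRE-1, had 11.24, 10.64 and 11.24 in mutants, against 10.93, 10.17 and 10.75 in wild type. Each mutant array lay above the wild-type array of the same number, but the fit did not pair arrays by number. Whether a number marks a shared batch was not tested. The difference was 0.42 (SE 0.24, adjusted p = 0.945 by limma), with overlapping groups and -0.08 from a second probe set; the array does not separate spliced from unspliced xbp-1. ire-1 gave -0.07 and pek-1, the kinase that slows translation, 0.15. atf-6 gave 0.88 from one probe set and -0.53 from another. Of the 9 genes listed as sensors and transcription factors of the response, 6 lay above 0 with a median of 0.15. That median was 0.09 without mutant array 2 and 0.32 without mutant array 1. The list also holds the RNA ligase gene rtcb-1 (0.70), which is neither a sensor nor a transcription factor. The groups did not overlap in 1 of the 9, the bZIP factor gene zip-10, a share of 11.1% next to 6.45% of all genes on the higher side. It had 7.33 ± 0.36 in mutants and 6.41 ± 0.59 in wild type (SD of 3 arrays; difference 0.92, unadjusted p = 0.0295, adjusted p = 0.906 by limma). Whether zip-10 acts in the unfolded protein response was not tested here, and its place in the list is a choice.

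Of the 20 ER chaperones and folding enzymes, 17 had a difference above 0, next to 53.1% of all genes, and none passed the adjusted threshold. Their median was 0.21, next to 0.03 for all genes. It was 0.04 without wild-type array 2 and at most 0.39, without wild-type array 1, when any 1 vehicle array was left out. On the tunicamycin arrays it was 0.33. The protein disulfide isomerase pdi-3 had 9.44, 9.12 and 9.57 in mutants, against 8.43, 7.31 and 9.15 in wild type. Only mutant array 2 and wild-type array 3 crossed, and the difference was 1.08 (SE 0.38, unadjusted p = 0.0125, adjusted p = 0.905 by limma). On the other side of 0 was uggt-1, the glucosyltransferase that tags misfolded glycoproteins for another round of folding, with 6.62, 7.17 and 6.69 in mutants, against 7.58, 7.70 and 7.25 in wild type (difference -0.68). Both other uggt-1 probe sets gave smaller differences, -0.12 and -0.19. The 13 genes of ER-associated degradation had a median of 0.00 (0.24 without mutant array 1), with 6 above and 7 below 0, and the groups did not overlap in 1 of the 13, cup-2, a derlin (difference 0.71), a share of 7.69% next to 6.45% of all genes on the higher side.

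**Figure D4:**
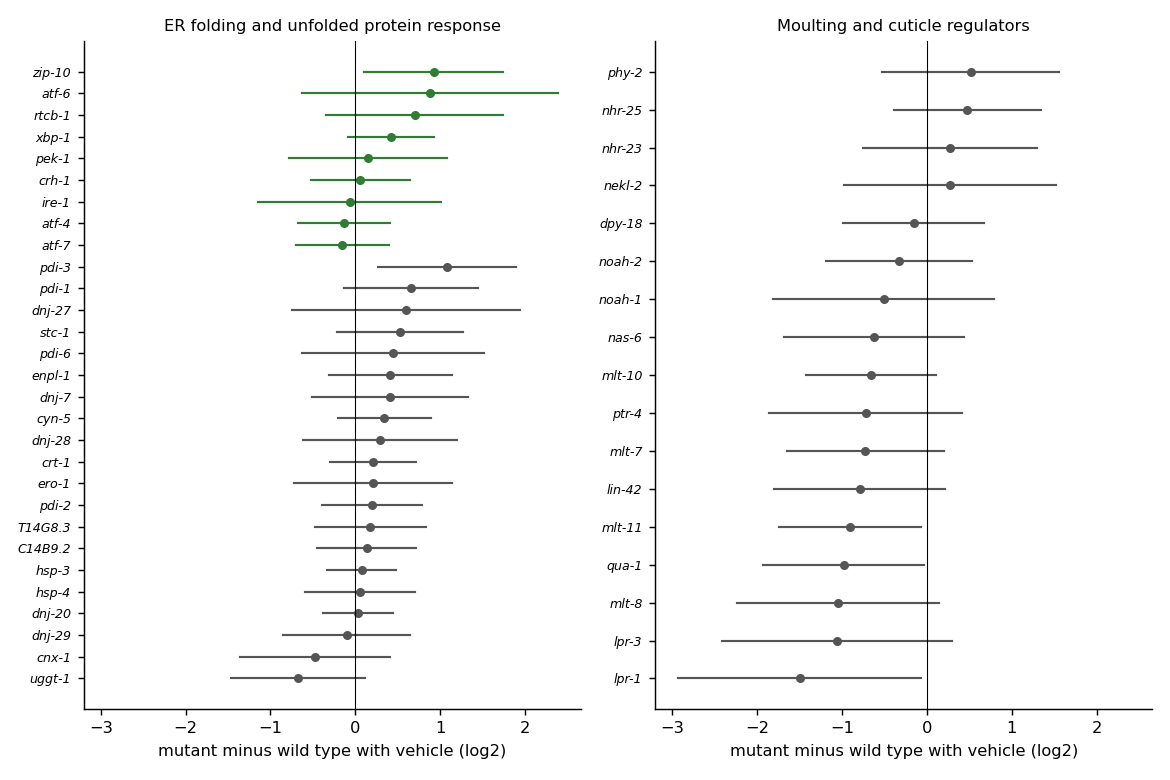
Genotype difference with vehicle (mutant minus wild type, log2, points) with limma's 95% intervals (lines). Shown are genes listed as sensors and factors of the unfolded protein response (green, left), ER chaperones and folding enzymes (grey, left) and moulting and cuticle regulators (right). Among the genes on the left pdi-3 and zip-10 have intervals above 0 before adjustment. On the right 13 of the 17 moulting and cuticle regulators lie below 0.

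Genes of the moult and the cuticle were the lowest of the 40 lists. Nematodes build a new collagen cuticle before each moult, under the control of nuclear receptors and with proteases, lipocalins and matrix proteins that act in the epidermis. Of the 17 measured regulators, 13 lay below 0 with a median of -0.66, and 0 passed the adjusted threshold. The groups did not overlap in 6, all lower in mutants (35.3%, next to 4.5% of all genes), and 3 had an unadjusted p below 0.05 (17.6%, next to 2.28% of all genes). mlt-11, a protease inhibitor needed for moulting, had 7.66, 7.25 and 8.18 in mutants, against 8.61, 8.57 and 8.63 in wild type (difference -0.91). qua-1, a hedgehog-related protein, had 5.35, 4.96 and 5.52 in mutants, against 6.50, 6.43 and 5.85 in wild type (difference -0.98).

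The lipocalin gene lpr-1 had 2.64, 3.16 and 3.11 in mutants, all within the background range, against 4.15, 5.67 and 3.59 in wild type (difference -1.50). mlt-10, mlt-7, a peroxidase that cross-links the cuticle, and lpr-3 completed the 6, with differences of -0.66, -0.72 and -1.06. The nuclear receptors that direct the moult gave 0.27 for nhr-23 and 0.48 for nhr-25. The list's median was -0.50 with tunicamycin, and lpr-3 gave -1.56 and lin-42, the Period homologue that times larval events, -1.52 there. It ranged from -0.81 to -0.41 when any 1 vehicle array was left out and was -0.36 without the 4 arrays numbered 2.

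With vehicle, the summed signals of these 17 genes, on the linear scale, were 1161 to 1468 in mutants and 1637 to 2194 in wild type. Their mean log2 signals were 5.410, 5.523 and 5.787 in mutants, against 6.246, 6.178 and 5.790 in wild type, nearly equal on arrays 3. With tunicamycin the sums overlapped, at 2942, 2418 and 2493 in mutants, against 2539, 2874 and 1493 in wild type. With vehicle, sums also parted for the mitochondrial unfolded protein response, at 4086 to 4516 in mutants and 2719 to 3956 in wild type. So did those of glutathione and glucuronosyl transferases, at 3906 to 4137 in mutants and 3611 to 3887 in wild type. The sums of the remaining lists overlapped. Markers of the epidermis, the tissue that makes the cuticle, had a median difference of -0.26 with vehicle and 8 of 13 below 0. They summed to 3191 to 4170 in mutants and 3517 to 5021 in wild type with vehicle. That median lay between -0.44 and -0.07 when any 1 vehicle array was left out. This list holds cuticle genes and nhr-25, which it shares with the moulting list. Markers of the pharynx had a median of -0.32 with vehicle (-0.57 without wild-type array 1) with 7 of 8 below 0. They summed to 448.8 to 571.8 in mutants and 516.9 to 820.6 in wild type. With tunicamycin the medians were -0.13 for the epidermal and -0.79 for the pharyngeal markers. The part of tissue content or of developmental timing in the cuticle genes was not tested.

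Collagens showed a smaller shift of the same sign. Of 132 measured collagen genes 89 lay below 0, with a median of -0.14, and none passed the adjusted threshold. The groups did not overlap in 17 that were lower in mutants (12.9%, next to 4.5% of all genes) and in 1 that was higher (0.758%, next to 6.45%). col-41 had 8.21, 7.11 and 8.74 in mutants, against 9.25, 9.47 and 9.36 in wild type (difference -1.34), but 0.21 with tunicamycin. The higher one was col-150, with 5.66, 5.28 and 5.30 in mutants, against 4.02, 4.48 and 4.19 in wild type (difference 1.18). The median of all collagens was -0.07 without the 4 arrays numbered 2 and between -0.24 and -0.05 with any 1 vehicle array left out. Hedgehog- and patched-related genes, many of them expressed in the epidermis, had a median of -0.25 with 33 of 50 below 0, which was -0.13 without those 4 arrays.

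The other lists stayed within 0.3 of 0 in their median. Markers of dopaminergic neurons were of interest because of the neurotrophic role of vertebrate MANF, but most were dim: 6 of 9 were tested and gave a median of 0.06, between -0.20 and 0.28 with any 1 vehicle array left out. dat-1, the dopamine transporter, had 3.40, 3.66 and 4.10 in mutants, against 3.37, 3.29 and 3.88 in wild type, near background in both and overlapping. bas-1, the decarboxylase that makes dopamine and serotonin, had 4.49, 5.18 and 5.57 in mutants, against 4.46, 5.19 and 4.09 in wild type (difference 0.50). asic-1 gave 0.10, tsp-17 0.03 and trp-4 -0.02. The sixth, ttx-1, is better known from thermosensory neurons than from dopaminergic ones and gave -0.58. Pan-neuronal markers had a median of 0.03 over 13 genes, with 7 above 0. rab-3, the GTPase of synaptic vesicles, was lowest at -1.11 but gave -0.22 from a second probe set, and unc-119 was highest at 0.64.

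Muscle markers had a median of -0.09, intestinal markers -0.04 and germline markers -0.02. Of the 13 muscle markers 6 lay above 0 and 7 below. unc-22, for twitchin, gave -0.56 and 0.08 from its 2 probe sets. ttn-1, for a titin-like protein, gave 0.79 from its brightest probe set and -0.15 to 0.57 from the others. tni-3, a troponin I, gave 0.52 from its brightest probe set and 0.03 from the other. The unc-89 probe set used here gave -1.15, and another probe set of the same gene gave 1.73, so no direction is given for unc-89.

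Among the stress and metabolic lists, the mitochondrial unfolded protein response had a median of 0.28 over 13 genes and the cytosolic heat shock response 0.20 over 15. The first median was 0.12 without wild-type array 1, and the second 0.06 without wild-type array 2. Of the 36 subunits of the respiratory chain 26 lay above 0, with a median of 0.12, which was 0.30 without mutant array 2. The complex I subunit gene gas-1 had 8.60, 8.31 and 7.99 in mutants, against 6.55, 7.68 and 7.46 in wild type (difference 1.07), but -0.27 with tunicamycin and 0.21 from a second probe set with vehicle. nuo-5, for another complex I subunit, gave -0.68. In fat metabolism elo-2, a fatty acid elongase, gave 1.26 and ckb-2, a choline kinase, 1.06, both without overlap. Of the list's 29 genes, the groups did not overlap in 4 that were higher (13.8%, next to 6.45% of all genes). They did not overlap in 1 that was lower, acdh-1 at -1.19 (3.45%, next to 4.5% of all genes). The list's median was 0.12, between 0.05 and 0.27 with any 1 vehicle array left out.

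F-box A genes, a large family of putative ubiquitin ligase adaptors, had 35 of 49 tested members above 0 with a median of 0.17. That median was 0.09 without the 4 arrays numbered 2. The groups did not overlap in 8 (16.3%, next to 6.45% of all genes), among them fbxa-164 (1.51), fbxa-5 (0.93) and fbxa-77 (0.94). Wild-type means of fbxa-164 (2.89) and fbxa-5 (2.87) lay within the background range, and only 49 of the 171 family members on the array were bright enough to be tested. The prion-like abu and pqn genes had 35 of 50 below 0 with a median of -0.15, and abu-12 gave -2.13 with overlapping groups. Without the 4 arrays numbered 2 the median was -0.06. With all vehicle arrays, the groups did not overlap in 4 that were higher (8%, next to 6.45% of all genes). They did not overlap in 2 that were lower (4%, next to 4.5% of all genes). Ribosomal proteins (median 0.00 over 61 genes), proteasome subunits (0.05 over 32), autophagy genes (0.04 over 19), insulin signalling and starvation genes (-0.06 over 18), C-type lectins (-0.02 over 79) and cytochrome P450 genes (-0.06 over 49) were centred close to 0. No member of any of the 40 lists passed the adjusted threshold.

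**Figure D5:**
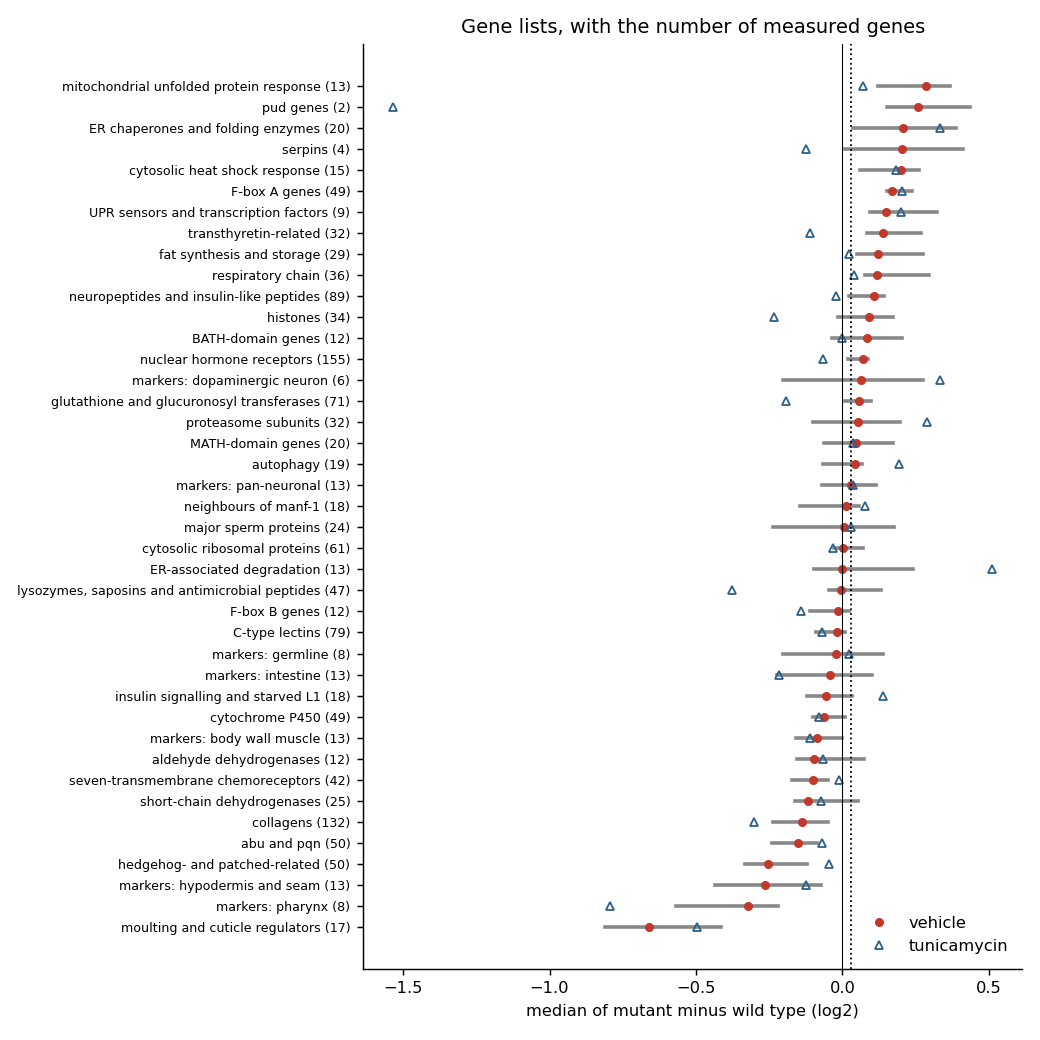
Median genotype difference (mutant minus wild type, log2) of each of the 40 gene lists, and of the neighbours of manf-1, with vehicle (red points) and with tunicamycin (blue triangles). The number of measured genes is in brackets. Grey lines span the vehicle medians found when 1 vehicle array at a time was left out, and the dotted line is the median of all genes, 0.03. Moulting and cuticle regulators lie lowest at -0.66 with vehicle, and the other vehicle medians lie between -0.32 and 0.28.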

How the data were processed

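The values are the submitters' table of log2 signals of 22625 Affymetrix probe sets on 12 arrays, made from 6 ug of total RNA per the labels' protocols and deposited as log2 values. The log2 scale was inferred from their range. The submitters' processing notes name MAS5 without role or version; the normalization of the deposited log2 values is otherwise not given in the sources used here. Nearly equal array medians show that arrays were scaled to each other, which assumes that most transcripts keep their level. No 2 arrays were identical, and the table has no detection calls.

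Control probe sets (77) were dropped, and the signals were not normalized again. Group means of all 12 arrays (4 groups of 3) were fitted with limma 3.58.1 in R 4.3.3 (lmFit, eBayes with trend, 8 residual and 5.93 prior degrees of freedom). Tests are two-sided, and p-values were adjusted by Benjamini-Hochberg over the 14709 probe sets within each contrast: genotype with vehicle, genotype with tunicamycin, and their interaction. Errors are limma's SE. Of the tested probe sets 13689 have 1 gene in the platform annotation, 481 several and 539 none; 13649 were matched in RefSeq (WBcel235), which was used for names and gene order only. Each of the 10844 genes is represented by its brightest probe set, by the mean of the 12 arrays. That is a choice for 2332 genes. No sequence was used here.

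The genes named are those past the threshold in any contrast, the 15 largest differences in each direction among genes with an unadjusted p under 0.01 and no overlap, 6 fixed genes of the unfolded protein response (atf-6, pek-1, ire-1, xbp-1, hsp-4 and hsp-3), and up to 4 members of each list with the smallest p; the text gives part of these, and says where a gene was added. The comparison, the lists and the tests were chosen with earlier results of these data known. Of the names written into the lists, 19 matched no gene on the array, and a wrong identifier was removed from the list of ER-associated degradation. Alternatives were quantile normalization, centring on medians, a stricter filter (60th percentile) or none, an offset before log2, eBayes without trend or robust, only the arrays compared, the replicate number as a block, other thresholds, and leaving out arrays. The scripts were tested on simulated data.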

Additional observations from a re-analysis of the deposited data

Results flagged for a closer look

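A probe set of rab-6.1, a Rab GTPase of the Golgi, stood out because its genotype difference changed with treatment. Its signals were 4.44, 4.44 and 4.07 in mutants with vehicle, against 5.70, 6.41 and 5.84 in wild type, and 6.01, 6.11 and 6.08 in mutants with tunicamycin, against 3.94, 3.96 and 4.10 in wild type. The difference was -1.67 with vehicle and 2.06 with tunicamycin, and the change between them was 3.73 (SE 0.46, adjusted p = 0.0177 for the interaction by limma). Both other rab-6.1 probe sets, which were brighter, gave 0.34 and 0.16 with vehicle and 0.00 and 0.30 with tunicamycin, so the probe sets of this gene disagree.

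The antimicrobial peptide gene abf-2 was higher in all mutant than in all wild-type arrays with vehicle and lower in all of them with tunicamycin, a change of -2.23 in the genotype difference. The aldehyde dehydrogenase gene alh-5 did likewise, with 8.22, 8.36 and 8.07 in mutants with vehicle, against 7.72, 7.50 and 8.01 in wild type, and a change of -2.27. Neither change passed the adjusted threshold in limma's interaction test (adjusted p = 0.995 for abf-2 and 0.233 for alh-5).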

How the results depend on the processing

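tag-244 was lower in mutants under all 18 settings, with differences from -4.12 to -2.84, and passed in 15 of them. With vehicle the count of 1 became 493 at an unadjusted p with a 2-fold difference (282 higher, 211 lower), 0 to 2 when any 1 array was left out, and 0 without the 4 arrays numbered 2, where 641 had an unadjusted p under 0.05. With tunicamycin the count of 6 became 1 with no filter, 11 with a filter at the 60th percentile, 1 with an offset before log2, 0 without the trend, 1 with robust eBayes, 0 with only the arrays compared, 467 at an unadjusted p with a 2-fold difference, 11 at an adjusted p under 0.1, 0 to 2 with any 1 array left out, and 0 once those 4 arrays were removed (768 with an unadjusted p under 0.05). The interaction's count of 1 became 610, 3 and 0 to 2 under the corresponding settings and 0 once they were removed (614 with an unadjusted p under 0.05). The cause of these changes was not tested. Small differences turned sign when 1 vehicle array was left out: hsp-3 ranged from -0.014 to 0.174, hsp-4 from -0.38 to 0.28, ire-1 from -0.50 to 0.27 and pek-1 from -0.16 to 0.35, and hsp-4 was -0.36 without the arrays numbered 2.

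Arrays with the same number deviated together with correlations of 0.044, 0.124 and 0.044 in mutant and wild-type vehicle groups. Between arrays with different numbers the correlations ranged from -0.105 to 0.080. The main fit did not pair samples by number. The array numbered 2 in every group shared the deviating control probe sets described above, and whether a number marks a shared batch was not tested. With the replicate number as a block, limma called 1 probe set with vehicle, 3 with tunicamycin and 2 for the interaction. Signals near background limit what can be seen: 7839 probe sets were too dim to be tested with the filter used.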
